A study of Mus musculus with 8 samples.

Results

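The miR-199 and miR-214 family was examined in the early callus of mice, and its members were chosen by name as the murine miRs mmu-miR-199a-3p, mmu-miR-199a-5p, mmu-miR-199b-5p, mmu-miR-214-3p and mmu-miR-214-5p, written without the prefix below. These are 5 of the 1079 murine miRs on the arrays, and all 5 were detected on all 8 arrays, as were 310 murine miRs in total. Total RNA was isolated from callus of adult CD-1 mice, taken from a colony of both sexes, 7 days after osteotomy of the femur, which had been stabilized with a pin and a clip. In the Union group (4 mice, P17 to P20) the gap was 0.25 mm, and in the Nonunion group (4 mice, P13 to P16) it was 1.8 mm and the periosteum was stripped in addition, so that gap size and periosteum cannot be told apart. The groups are named after the outcome that these gaps are known to lead to, and the outcome could not yet be seen in these animals. Each mouse gave 1 array, all 8 arrays lay on 1 slide, and a slide row never held arrays of both groups, so that row and group cannot be told apart. The arrays had 324 to 391 detected murine miRs and a summed merged signal of 183589 to 279341 in the Nonunion group and of 227941 to 360063 in the Union group. P19 of the Union group stood near the Nonunion arrays, and values without it are given beside those with it. In the study's own clustering of its most variable miRs, both P19 and P20 lay near the Nonunion samples. Counts without P20 and without each other array are given further below.

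The arms of miR-199a and miR-214 can be cut from one long noncoding RNA, Dnm3os, which is transcribed from within the dynamin gene Dnm3 and is known from the embryonic skeleton and other mesenchyme. Mice without Dnm3os have skeletal defects, and the transcription factor Twist1, which binds E-boxes, is known to drive it. In bone, miR-214-3p is known as an inhibitor of osteoblasts that acts on Atf4. An arm of miR-199a is known to act on Smad1 of the BMP pathway in cartilage formation. MiR-199a-3p is known to act on mTOR and Met. The 2 arms of a hairpin, 5p and 3p, are cut from the same precursor and carry different seeds, the bases near the 5′ end by which a miR finds its targets.

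The mature sequences show the seeds of the members. RefSeq (GRCm38.p6) holds 4 of the 5, and they are printed 5′ to 3′ with the seed (bases 2 to 8) in capitals.
miR-199a-3p: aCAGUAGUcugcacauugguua
miR-199a-5p: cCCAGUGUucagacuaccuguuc
miR-214-3p: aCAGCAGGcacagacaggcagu
miR-214-5p: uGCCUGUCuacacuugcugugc
miR-761: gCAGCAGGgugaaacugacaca
No 2 of these 4 members shared a seed. MiR-761 is added because it was the only other miR in the RefSeq table with the seed of miR-214-3p, and it was detected on 0 of the 8 arrays. The seed of miR-199a-3p was shared with miR-199b-3p, whose mature sequence is identical and which has no entry of its own on the array.

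The precursors show from which loci the measured RNA can come. They are printed 5′ to 3′ with the mature arms listed by RefSeq in capitals, and the coordinates are those of GRCm38.p6.
Mir199a-2, chr1:162217814-162217923, plus strand: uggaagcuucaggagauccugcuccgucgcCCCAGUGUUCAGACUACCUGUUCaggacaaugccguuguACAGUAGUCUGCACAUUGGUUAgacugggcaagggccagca
Mir214, chr1:162223368-162223477, plus strand: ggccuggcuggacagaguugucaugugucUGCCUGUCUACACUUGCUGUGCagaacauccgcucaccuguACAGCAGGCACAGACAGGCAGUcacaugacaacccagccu
Mir199b, chr2:32318460-32318569, plus strand: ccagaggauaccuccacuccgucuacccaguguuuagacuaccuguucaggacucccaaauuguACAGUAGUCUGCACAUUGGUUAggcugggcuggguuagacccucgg
Mir199a-1, chr9:21496495-21496564, minus strand: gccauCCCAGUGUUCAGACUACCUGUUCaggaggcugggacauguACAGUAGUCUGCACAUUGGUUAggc
Mir199a-2 and Mir214 lay 5444 bases apart, both inside Dnm3os and Dnm3. Mir199b lay inside Dnm1 and Mir199a-1 inside Dnm2, the genes of other dynamins. The sequence of miR-199a-3p occurred without mismatch in 3 of these hairpins, so that its signal cannot be assigned to one locus. The sequence of miR-199a-5p occurred without mismatch in 2 of them, and its best match in Mir199b differed by 1 base, C10U, counted from 1 at the 5′ end of miR-199a-5p and outside the seed, so that Mir199b also holds the seed letters of miR-199a-5p. Whether the probes of miR-199a-5p and miR-199b-5p tell these sequences apart was not tested. The sequences of miR-214-3p and miR-214-5p each occurred only in Mir214 among the 4.

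The promoter of Dnm3os is shown because 4 of the 5 members, the arms of miR-199a and miR-214, can be cut from its transcript. It covers 250 bases before and 50 after the start of the RefSeq gene, at chr1:162217373-162217672 of GRCm38.p6 on the plus strand, with the E-box letters CANNTG, which read the same on both strands, in capitals.
Dnm3os promoter: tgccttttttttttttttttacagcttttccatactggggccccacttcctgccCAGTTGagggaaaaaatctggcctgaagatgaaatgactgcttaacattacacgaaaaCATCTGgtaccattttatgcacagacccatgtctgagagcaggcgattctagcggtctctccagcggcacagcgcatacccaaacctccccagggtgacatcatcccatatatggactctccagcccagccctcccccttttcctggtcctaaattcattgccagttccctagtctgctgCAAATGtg
The window held 3 E-boxes, 2 before the start and 1 after it, and none overlapped another. Of the 32851 promoters of this length in the table, 72.3% held at least 1 E-box and 17.6% held 3 or more. This is a description of letters, and binding was not measured.

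All 5 miRs had a higher mean signal in the Nonunion group. The merged signal, which the scanner software forms from the 40 spots of a miR after background correction, is given first without normalization. MiR-199a-3p had the merged signals 6884, 5496, 7341 and 6832 on P13 to P16 of the Nonunion group and 4131, 3505, 6431 and 3609 on P17 to P20 of the Union group. MiR-199a-5p, the other arm of the same precursors, had 1961, 1523, 2000 and 1948 in the Nonunion group and 1159, 969.0, 1762 and 848.9 in the Union group. Both arms were lowest on P14 among the Nonunion arrays and highest on P19 among the Union arrays, and P19 lay above P14, so that the groups overlapped by this 1 pair of arrays.

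MiR-199b-5p, the related miR from another chromosome, had the merged signals 2093, 1772, 2222 and 2145 in the Nonunion group and 1395, 1241, 1882 and 1387 in the Union group. The order of P14 and P19 was as in the miR-199a arms. MiR-214-3p had 1246, 900.4, 1302 and 1273 in the Nonunion group and 647.0, 536.8, 1047 and 593.0 in the Union group. MiR-214-5p, the other arm of this hairpin, had 19.9, 12.8, 19.5 and 19.3 in the Nonunion group and 12.2, 9.69, 15.5 and 7.22 in the Union group. In all 5 miRs the Nonunion arrays other than P14 lay above all Union arrays, and P19 lay above P14.

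**Figure D1:**
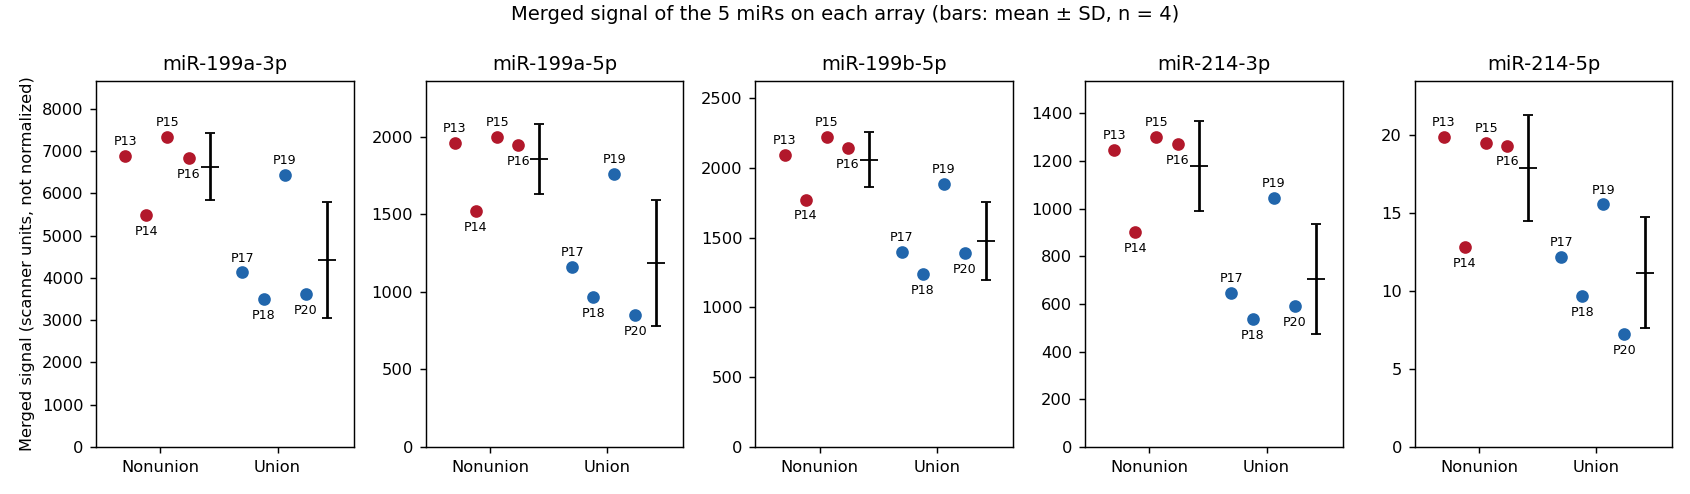
Merged signal of each miR in scanner units (y axis, from 0, not normalized) on each array of the Nonunion group (red) and the Union group (blue), with the mean ± SD of 4 arrays beside the points. In every panel P19 lay above P14, and P13, P15 and P16 lay above all 4 Union arrays.

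The mean merged signal of the Nonunion group was 1.39 times that of the Union group for miR-199b-5p, 1.50 times for miR-199a-3p, 1.57 times for miR-199a-5p, 1.60 times for miR-214-5p and 1.67 times for miR-214-3p. On the log2 scale without normalization, the difference gave p = 0.0571 for each of the 5 miRs (two-sided exact permutation test over the arrays, n = 4 per group, where the smallest possible p is 0.0286). Without P19 the ratios of the means were 1.54 for miR-199b-5p and 1.99 for miR-214-3p, the lowest and the highest of the 5. The coefficient of variation between arrays was 9.61% to 18.9% in the Nonunion group and 18.96% to 34.2% in the Union group, and without P19 it was 6.47% to 25.6% in the latter. The error that the software gave for a merged signal was 7.29% to 8.85% in 4 of the miRs and 10.6% to 14.1% in miR-214-5p.

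After log2 transformation and quantile normalization over all murine miRs, the step named in the study's methods, P19 also reached P13 in the miR-199 arms. It lay above P13 in miR-199a-5p and level with P13 in miR-199a-3p and miR-199b-5p. Normalized log2 signals of miR-199a-3p were 12.91, 12.33, 13.15 and 13.83 on P13 to P16 and 11.75, 11.57, 12.91 and 11.95 on P17 to P20. Those of miR-199a-5p were 10.88, 10.48, 10.98 and 11.16 in the Nonunion group and 10.01, 9.94, 10.92 and 9.87 in the Union group. Those of miR-199b-5p were 11.01, 10.78, 11.16 and 11.57 in the Nonunion group and 10.09, 10.30, 11.01 and 10.41 in the Union group. P16 was now the highest array for each of the 5 miRs, P14 was again the lowest of the Nonunion group and P19 again the highest of the Union group. Of all arrays, P16 had the fewest detected murine miRs (324) and the lowest summed merged signal (183589). Without normalization it was the highest array for none of the members.

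In the miR-214 arms P14, P16 and P19 held the same places. MiR-214-3p had normalized log2 signals of 10.18, 9.66, 10.41 and 10.55 in the Nonunion group and 9.18, 9.18, 10.22 and 9.26 in the Union group. MiR-214-5p had 4.33, 3.54, 4.37 and 4.74 in the Nonunion group and 2.94, 2.94, 3.96 and 2.76 in the Union group. In both arms the Union arrays other than P19 lay close together, and P19 lay above P14 of the Nonunion group. In miR-214-3p P19 also lay above P13.

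**Figure D2:**
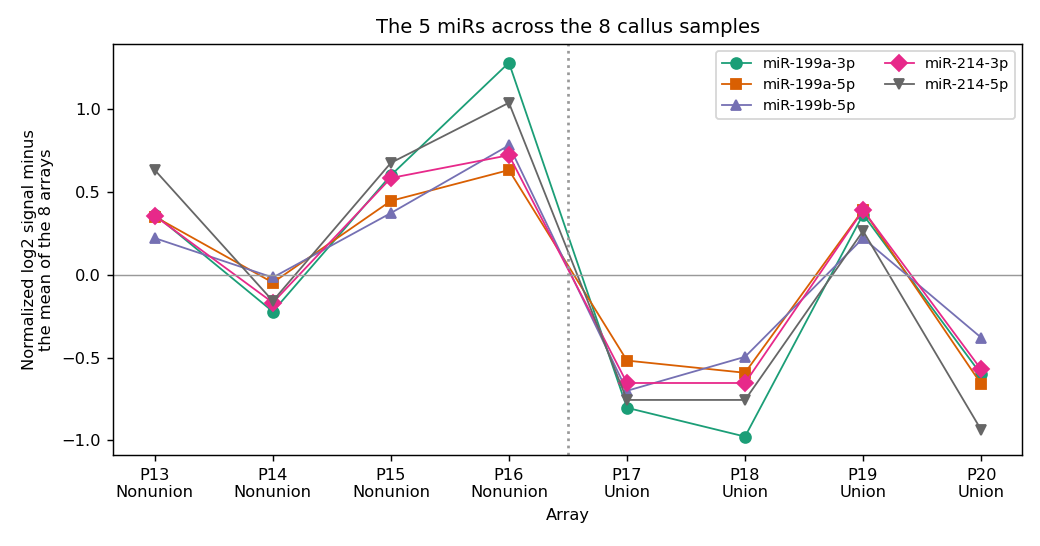
Normalized log2 signal of the 5 miRs on each array, as the deviation from the mean of the 8 arrays (y axis, log2 units), with the Nonunion arrays to the left of the dotted line and the Union arrays to the right. All 5 lines had their highest point on P16, their lowest Nonunion point on P14 and their highest Union point on P19.

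Tested with limma over the 310 miRs detected on all arrays (Nonunion minus Union, two-sided), miR-214-5p differed by 1.09 on the log2 scale (SE 0.34, 95% confidence interval 0.32 to 1.86, fold change 2.13, adjusted p = 0.288), and exact permutation of its 8 values gave p = 0.0571. MiR-199a-3p differed by 1.01 (SE 0.38, interval 0.14 to 1.88, fold change 2.01, limma adjusted p = 0.313). The differences of the other 3 were smaller. That of miR-214-3p was 0.75 (SE 0.30, interval 0.06 to 1.43, fold change 1.68, limma adjusted p = 0.322), that of miR-199a-5p was 0.69 (SE 0.28, interval 0.06 to 1.32, fold change 1.61, adjusted p = 0.322) and that of miR-199b-5p was 0.68 (SE 0.26, interval 0.09 to 1.27, fold change 1.60, adjusted p = 0.313). The two-sided exact permutation p was 0.0857 for each of these 4 miRs.

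The study called a miR relevant at a p under 0.05 without adjustment, at a mean fold change of 2 or more, or at both. In its own list miR-199b-5p and miR-214-5p passed by p and miR-199a-3p by fold change. MiR-199a-5p and miR-214-3p were not in that list. With limma, 5 of 5 members had an unadjusted p under 0.05, beside 9.68% of the 310 tested miRs as higher in the Nonunion group. After Benjamini-Hochberg adjustment 0 of 5 passed with limma, as did 0.00% of all tested miRs in this direction. A fold change of 2 or more was reached by 2 of 5, against 7.10% of all tested miRs. The count under an unadjusted p of 0.05 was 2 when all murine miRs were fitted without a filter on dim signals, 2 when each miR was tested on its own variance in place of limma's, and 3 with a normexp background correction. It also depended on single arrays, since it stayed at 5 without P14 or P19, was 3 without P13, and was 1, miR-214-5p, when any single one of P15, P16, P17, P18 or P20 was left out. The count with a fold change of 2 or more was 3 without P19, where 10.6% of all tested miRs reached it, 1 without P15, P17 or P18 and 0 without P16 or P20.

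P19 of the Union group lay close to the Nonunion group in most miRs. It was nearer to the Nonunion mean than to the mean of the other Union arrays for 5 of 5 members and for 80.0% of all 310 tested miRs. With all arrays, 0 of 5 members had every Nonunion array above every Union array, against 1.29% of the tested miRs. Without P19 this held for 5 of 5 members, against 24.2% of the tested miRs on normalized values and 8.39% without normalization. P19 was the highest Union array for all 5 members, so that leaving it out favours this separation. The values without P19 are therefore no independent support for a difference. The limma differences without P19 were 1.35 for miR-214-5p (adjusted p = 0.0473), 1.29 for miR-199a-3p (adjusted p = 0.0668), 1.01 for miR-214-3p (adjusted p = 0.0524), 0.94 for miR-199a-5p (adjusted p = 0.0509) and 0.87 for miR-199b-5p (adjusted p = 0.0697). Without P19 all 5 members had an unadjusted p under 0.05, against 27.4% of all tested miRs, and 1 of 5 had an adjusted p under it, against 2.90%.

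The normalization set part of the size of these differences. Over all tested miRs the median difference was 0.15 with quantile normalization and -0.10 without normalization, and 59.4% and 40.3% of the differences were above 0. The median over the members was 0.75 with quantile normalization. Relative to the median of all tested miRs, the members were higher in the Nonunion group by 0.53 (miR-199b-5p) to 0.94 (miR-214-5p) with quantile normalization and by 0.60 (miR-199b-5p) to 0.88 (miR-214-3p) without it. The difference of miR-199a-3p itself was 1.01 with and 0.62 without normalization, and that of miR-214-5p was 1.09 with and 0.71 without, so that on unnormalized signals 0 of 5 members reached a fold change of 2, against 2.58% of all tested miRs, while 5 of 5 had an unadjusted limma p under 0.05, against 6.13%. Those of miR-199a-5p (0.69 and 0.70) and miR-214-3p (0.75 and 0.78) moved by less than 1 SE. With a normexp background correction, which adds an offset of 50, the weak signal of miR-214-5p differed by 0.12 in place of 1.09. MiR-214-5p differed by 0.82 with quantile normalization over only the miRs detected on all arrays. In the value table that the authors deposited it differed by 0.73.

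**Figure D3:**
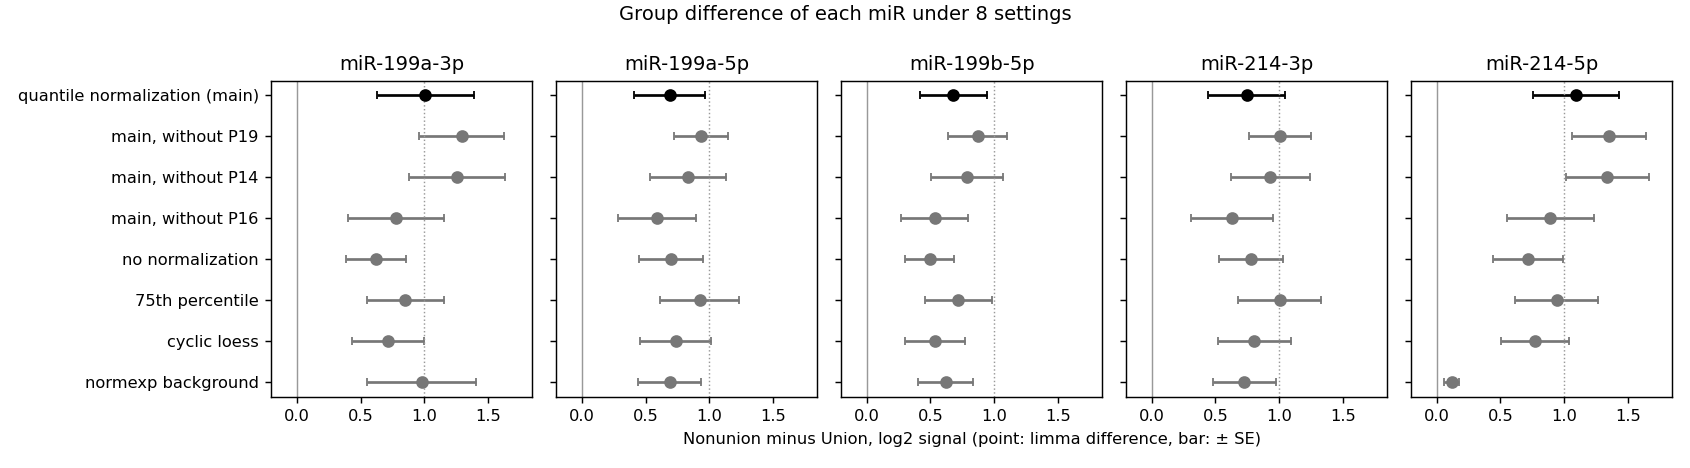
Difference of each miR between the groups (x axis, Nonunion minus Union on the log2 scale) with its limma SE, under quantile normalization, without single arrays and under other processing, where the dotted line marks a fold change of 2. All points lay above 0, from 0.12 for miR-214-5p after normexp background correction to 1.35 for the same miR without P19.

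The spread between arrays of one group was ordinary for these arrays. The pooled SD of the normalized log2 signal was 0.61 for miR-199a-3p, 0.53 for miR-214-5p, 0.45 for miR-214-3p, 0.40 for miR-199a-5p and 0.37 for miR-199b-5p, and its median over all tested miRs was 0.44. The SD of miR-199a-3p stood at percentile 76.8 among the tested miRs and that of miR-199b-5p at percentile 40.3.

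Each miR was read by more than 1 probe, so that the direction could be looked at probe by probe, although probes on one array share their RNA and are not replicates. For miR-199a-3p the probes differed between the groups by 0.64 and 0.61 (Nonunion minus Union, log2 of the mean spot signal, not normalized). The probes of miR-199a-5p differed by 0.69 and 0.70, those of miR-199b-5p by 0.42 and 0.51, and those of miR-214-3p by 0.80 and 0.76. MiR-214-5p had 4 probes of 10 spots each, of which a single probe was well above background, with all 10 spots on every array, and this probe differed by 0.71. The merged signal of miR-214-5p therefore rested on 10 of its 40 spots. On each of the 9 probes with signal, every Nonunion array lay above P17, P18 and P20.

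**Figure D4:**
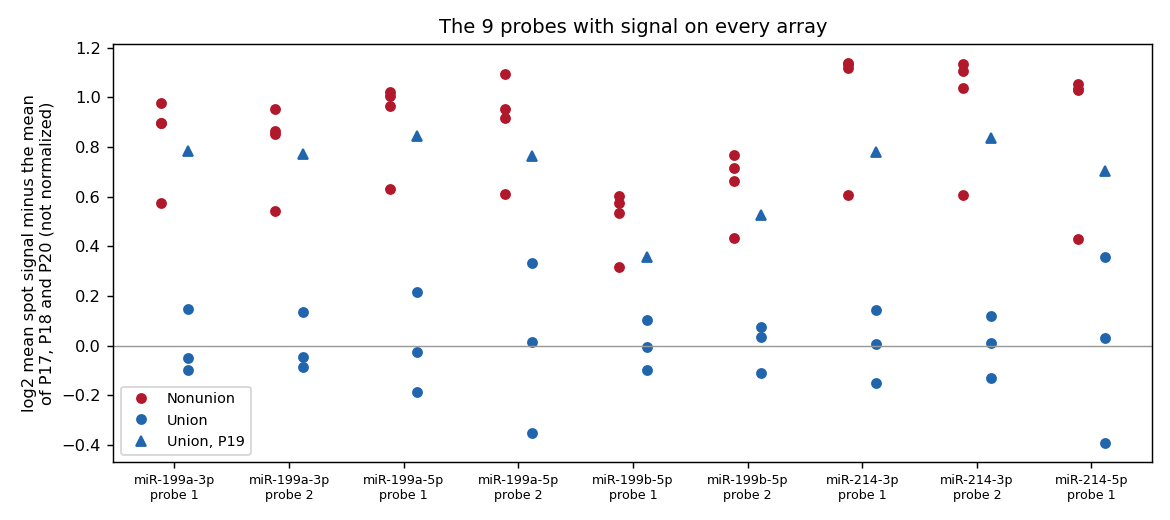
The log2 mean spot signal of each of the 9 probes with signal on every array, relative to the mean of P17, P18 and P20 (y axis, log2 units, not normalized), with Nonunion arrays in red, Union arrays in blue and P19 as a triangle. On all probes P19 lay above the lowest Nonunion array, which was P14.

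Ratios of members on one array were compared between the groups, since a scaling of the whole array does not change them. Only the change of a ratio between arrays is read here, not which of its miRs was more abundant. Without normalization the log2 ratio of miR-199a-3p over miR-199a-5p, the arms of one precursor, was 1.81 to 1.88 on the Nonunion arrays and 1.83 to 1.87 on P17 to P19, and it was 2.09 on P20. The difference between the groups was -0.074 (two-sided exact permutation test, p = 0.229, adjusted p = 0.457 over the 4 ratios). On P20 the ratio of miR-199a-5p over miR-199b-5p was also the lowest, -0.71 against -0.36 to -0.09 on the other 7 arrays, and the ratio of miR-214-3p over miR-214-5p the highest, 6.36 against 5.73 to 6.14.

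The ratio of miR-214-3p over miR-199a-5p, the neighbours in Dnm3os, differed by 0.079 between the groups without normalization (two-sided exact permutation test, p = 0.457) and by 0.056 with quantile normalization (exact permutation test, p = 0.429). The ratio of miR-199a-5p over miR-199b-5p differed by 0.21 without normalization (exact permutation test, p = 0.143) and by 0.012 with it (exact permutation test, p = 0.943). The ratio of miR-199a-5p over miR-199b-5p had an SD of 0.05 in the Nonunion group and 0.26 in the Union group without normalization, and no p of these ratios was under 0.05.

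Quantile normalization over all murine miRs also altered ratios that involve the members with the highest and the lowest signal. With it, the ratio of miR-214-3p over miR-214-5p was 5.81 to 6.12 on the Nonunion arrays and 6.23 to 6.50 on the Union arrays, without overlap and lower in the Nonunion group by 0.35 (two-sided exact permutation test, p = 0.0286, adjusted p = 0.114). Without normalization it was 0.064 higher in the Nonunion group (exact permutation test, p = 0.714), and in the value table that the authors deposited it was 0.018 higher (exact permutation test, p = 0.886). With quantile normalization over only the miRs detected on all arrays, this ratio differed by -0.075 (exact permutation test, p = 0.6). The ratio of miR-199a-3p over miR-199a-5p ranged from 1.84 to 2.67 on the Nonunion arrays after quantile normalization, with the highest value on P16, and differed by 0.32 between the groups (exact permutation test, p = 0.171). Neither difference passed after adjustment over the 4 ratios.

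**Figure D5:**
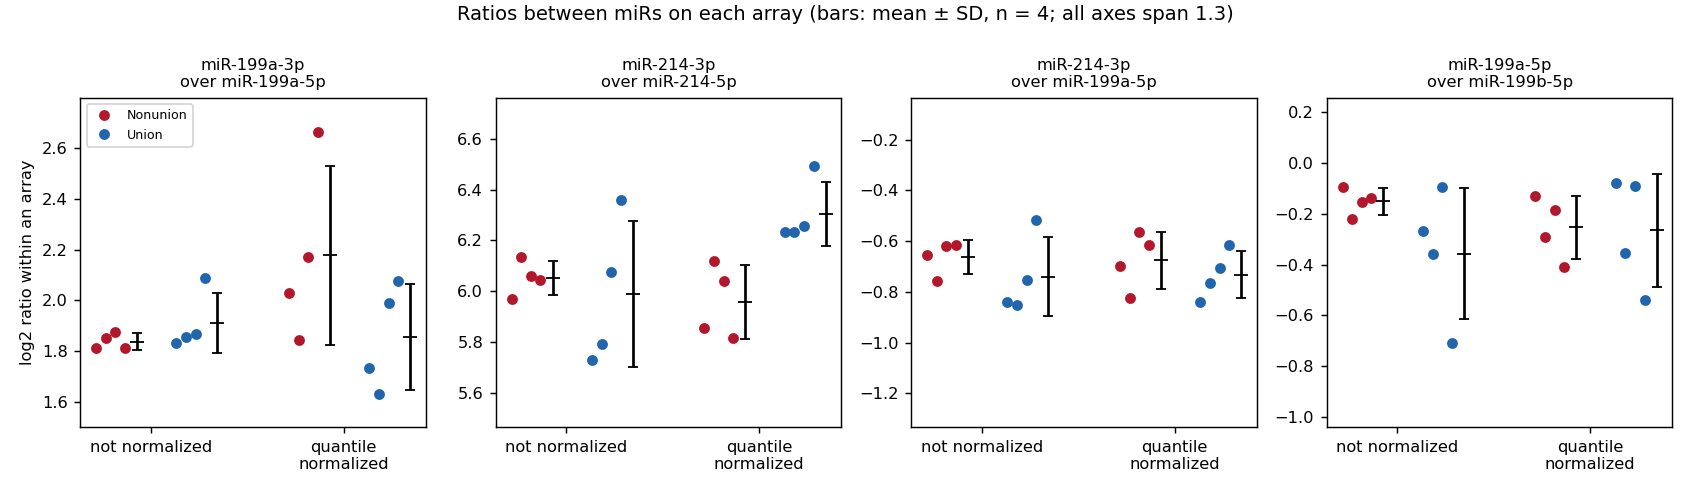
Log2 ratio of pairs of members on each array (y axis, log2 units, each panel spanning the same range) without normalization and after quantile normalization, with Nonunion arrays in red, Union arrays in blue and mean ± SD of 4 arrays. The arms of miR-199a kept a ratio of 1.81 to 1.88 on 7 arrays before normalization and spread from 1.63 to 2.67 after it.

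From array to array the 5 miRs varied together. Pearson's r of the normalized log2 signal was 0.948 to 0.988 for the 10 pairs of members (8 arrays, two-sided exact permutation p = 9.9e-05 to 0.000694, adjusted p = 0.000496 to 0.000694 over the 10 pairs), and Spearman's rho was 0.898 to 0.988 (exact permutation p = 0.000198 to 0.00456, adjusted p = 0.000992 to 0.00456). The closest pair was miR-199a-5p with miR-214-3p and the least close was miR-199a-5p with miR-199b-5p. Without the 2 arrays farthest from the median, r was 0.965 to 0.998. After each group had been centred on its own mean, r was 0.895 to 0.977. P19 lay 0.75 (miR-199b-5p) to 1.16 (miR-199a-3p) above the mean of the other Union arrays and was never among the arrays left out. Whether the centred r rests on P19 was not tested. Without normalization r was 0.900 to 0.996. The miRs of a pair share array and RNA, and for comparison all 47895 pairs of tested miRs had a median r of 0.05, with 5.26% of the pairs above 0.9.

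For each member the 3 other detected miRs most like it over the 8 arrays were listed by Pearson's r of the normalized log2 signal. For miR-199a-3p they were miR-455-5p (r = 0.984), miR-140-3p (r = 0.976) and miR-181b-5p (r = 0.975), and for miR-199b-5p they were miR-152-3p (r = 0.965), miR-455-3p (r = 0.964) and miR-140-3p (r = 0.963). MiR-140 and miR-455 are known as miRs of cartilage. For miR-199a-5p they were miR-677-3p (r = 0.987), miR-299-3p (r = 0.980) and miR-31-5p (r = 0.971), for miR-214-3p they were miR-3096b-3p (r = 0.969), miR-31-5p (r = 0.969) and miR-455-5p (r = 0.966), and for miR-214-5p they were miR-31-5p (r = 0.973), miR-677-3p (r = 0.966) and miR-455-5p (r = 0.948). The limma difference of miR-31-5p, Nonunion minus Union, was 1.52 (SE 0.43, adjusted p = 0.288). Without normalization, r was 0.983 between miR-31-5p and miR-199a-5p and 0.975 between miR-31-5p and miR-214-3p, whereas miR-677-3p and miR-199a-5p had an r of 0.781. For miR-199a-3p the r without normalization was 0.905 with miR-455-5p, 0.851 with miR-140-3p and 0.809 with miR-181b-5p. For miR-199b-5p it was 0.953 with miR-152-3p, 0.854 with miR-455-3p and 0.900 with miR-140-3p. Between miR-299-3p and miR-199a-5p it was 0.794.

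A callus holds fibrous, cartilaginous, muscular and blood cells, and in bulk RNA fewer cells of a type and less RNA per cell cannot be told apart. Of 26 other miRs commonly abundant in fibroblasts and smooth muscle, 24 were detected on all arrays. Of these 0 were higher and 1 was lower in the Nonunion group at an unadjusted limma p under 0.05, namely miR-10b-5p, a miR of the Hox loci, by -0.42 (limma adjusted p = 0.346), while 9.68% of all tested miRs were higher and 4.19% lower at this threshold. MiR-10b-5p kept a p under it without P14 or P19 and lost it without any single one of the other arrays. Their median difference was 0.31, against 0.75 for the members and 0.15 for all tested miRs, and 18 were above 0. The mean normalized log2 signal of this list was 9.01 to 9.11 on the Nonunion arrays. It was 8.70 to 8.81 on P17, P18 and P20 and 9.09 on P19, so that P19 stood with the Nonunion arrays after normalization. The summed merged signal of the list, not normalized, was 36433 to 49170 on the Nonunion arrays and 40342 to 56228 on the Union arrays. P19 had 40643, within the range of the other Union arrays.

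Among markers of other cells, those of cartilage moved with the members. All 4 of the 4 cartilage miRs, both arms of miR-140 and of miR-455, were higher in the Nonunion group at an unadjusted limma p under 0.05, beside 9.68% of all tested miRs, with differences of 1.28 to 1.46 and a median of 1.43 (limma adjusted p-values 0.288 to 0.313). The count was 4 without P14 or P19, 2 without P17 and 3 without any other single array. Their mean normalized log2 signal was 6.47 to 8.69 on the Nonunion arrays, 5.67 to 6.20 on P17, P18 and P20 and 6.93 on P19, and their summed merged signal was 934 to 3521 on the Nonunion arrays and 484 to 996 on the Union arrays. All 4 were detected on every array, and their part in the difference of the members was not tested.

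For the other lists the median difference was between -0.65 and 0.49. Of the 3 detected miRs of myeloid cells and leukocytes, 1 had an unadjusted limma p under 0.05, miR-223-3p, with a difference of -1.13 (SE 0.49, limma adjusted p = 0.346) that was -0.60 without P20, and its p was above this threshold without any single one of P13, P14, P15, P16 or P19. The mean level of this list was 9.53 to 10.12 on the Nonunion arrays, 10.01 to 10.16 on P17 to P19 and 11.997 on P20, and its part was not tested. Of the 4 detected miRs of skeletal muscle, the 3 of red blood cells (3 of the 4 listed names were on the array), the 2 of endothelium and miR-150-5p of lymphocytes, 0 had an unadjusted limma p under 0.05, and the list medians were -0.30, -0.30, -0.31 and 0.49. Of 7 epithelial miRs 0 were detected on all arrays, and their summed merged signal was 0.7 to 11.8. Of the 6 listed muscle miRs, 4 were detected on every array, among them miR-1a-3p and miR-133a-3p, so that the callus samples held muscle RNA. MiR-499-5p was detected on 5 arrays and miR-208b-3p on 2. The summed merged signal of this list was 14855 to 62359 on the Nonunion arrays and 36945 to 95817 on the Union arrays, and its part was not tested.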

How the data were processed

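RNA from the callus of 4 Nonunion and 4 Union mice was labelled with Cy3 and hybridized to 8 one-colour arrays. The scanner output was made by the authors with Feature Extraction 10.10.1.1 of Agilent. They deposited, per the file headers, background-corrected signal intensity values per spot and merged per miR on a linear scale with detection calls, and a table of normalized log2 values whose normalization was done by the authors. The log2 of the merged signals was quantile normalized over all 1079 murine miRs, and the 310 detected on all arrays were fitted with limma 3.58.1 (R 4.3.3, lmFit and eBayes, two-sided, Benjamini-Hochberg over the 310). A fold change is 2 to the power of the difference. Single values and ratios were compared by permuting all 70 arrangements of the arrays, and correlations by permuting all orders of the 8 arrays. These tests used numpy 2.4.6, with the ranks for Spearman's rho from scipy 1.17.1. The files were read with pandas 2.3.3, and matplotlib 3.10.9 drew the figures (Python 3.11.15). A miR not detected kept the software's signal of 0.1.

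The miRs named are the 5 members, miRs with a member's seed, the listed marker miRs and, per member, the 3 miRs with the highest Pearson r. MiR-31-5p was described further after its values were seen. Members and lists were chosen with earlier results of these data known. The lists were 26 miRs of fibroblasts and smooth muscle, and markers of cartilage, skeletal muscle, red blood cells, myeloid cells and leukocytes, lymphocytes, endothelium and epithelium. Alternatives were other normalizations, spot averages, normexp, other filters, a floor of 1, the authors' table, Welch's test and leaving out each array, and cyclic loess was added after the data had been seen. The fit was tested on simulated data. The number of arrays limits the precision. Sequences, hosts and coordinates came from RefSeq tables of GRCm38.p6, and no coordinates of the array design were used.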

Additional observations from a re-analysis of the deposited data

Results flagged for a closer look

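Among 50 sets of 4 arrays, each set being 1 group for 1 measure, 9 had an array that stood far from the other 3, where chance gives about 1 in 20, or 2.5. The measures are not independent, since the members varied together.

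P19 stood above the other Union arrays in normalized log2 signal, with 10.92 for miR-199a-5p (9.87 to 10.01 on the others), 10.22 for miR-214-3p (9.18 to 9.26) and 3.96 for miR-214-5p (2.76 to 2.94).

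P14 stood below the other Nonunion arrays in merged signal without normalization, with 1523 for miR-199a-5p (1948 to 2000 on the others), 900.4 for miR-214-3p (1246 to 1302) and 12.8 for miR-214-5p (19.3 to 19.9).

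P20 stood above the other Union arrays in the normalized log2 ratio of miR-214-3p over miR-214-5p, which was 6.50 (6.23 to 6.26 on the others), in the log2 ratio of miR-199a-3p over miR-199a-5p without normalization, which was 2.09 (1.83 to 1.87), and in the mean normalized log2 signal of the list of myeloid cells and leukocytes, which was 11.997 (10.01 to 10.16).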

How the results depend on the processing

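All 100 differences of members under 20 other settings kept their direction, from 0.12 to 1.35, and 30 of them no longer had an unadjusted p under 0.05. Outside the omission of arrays these were miR-199a-3p with normexp (0.98), with no filter on dim miRs and with Welch's test (1.01 in both), miR-199a-5p (0.69) and miR-214-3p (0.75) with no filter and with Welch's test, and miR-214-5p with normexp (0.12). Without single arrays the difference was 0.78 to 1.29 for miR-199a-3p, 0.56 to 0.94 for miR-199a-5p, 0.53 to 0.87 for miR-199b-5p, 0.63 to 1.01 for miR-214-3p and 0.89 to 1.35 for miR-214-5p. The count of members with an unadjusted p under 0.05 was 3 with normexp, 2 with no filter, 2 with Welch's test and 1 to 5 without single arrays. The count with a fold change of 2 or more was 1 with either 75th percentile, with quantile normalization of detected miRs only and in the authors' table, 0 without normalization, with normexp and with cyclic loess (chosen after seeing the data), and 0 to 3 without single arrays.

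The ratio of miR-214-3p over miR-214-5p differed by 0.064 without normalization, -0.075 with quantile normalization of detected miRs only, 0.018 in the authors' table, -0.35 with spot averages, 0.61 with normexp and -0.41 to -0.26 without single arrays. That of miR-199a-3p over miR-199a-5p differed by -0.074 without normalization. That of miR-199a-5p over miR-199b-5p differed by -0.040 with spot averages and by -0.093 to 0.077 without single arrays, and that of miR-214-3p over miR-199a-5p by -0.00071 to 0.11. The lowest r between members was 0.900 to 0.948 under the 4 other normalizations. The cause of these changes was not tested. No paired analysis was possible because the groups share no specimen numbers. Signals of miR-214-5p, the weakest member, lay nearest to background.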
